A study of Mus musculus with 13 samples.

Results

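A set of 10 array names whose standing as microRNAs (miRNAs) is doubtful was examined: mmu-miR-714, mmu-miR-712-5p, mmu-miR-5105, mmu-miR-5109, mmu-miR-5097, mmu-miR-3096-5p, mmu-miR-3096b-3p, mmu-miR-3096b-5p, mmu-miR-1940 and mmu-miR-1196-5p, written here without the species prefix. They are miRBase 18 entries printed on a mouse miRNA array for which the mouse gene table of RefSeq (GRCm38.p6) holds no miRNA gene, and most are suspected to be pieces of ribosomal RNA, transfer RNA or other RNAs. They make up 10 of the 1122 mouse names on the array. Of those 1122, 229 were tested, since in 1 group or more they exceeded background on each of its 3 arrays, and all 10 doubtful names were among the 229. miR-1940 passed only through the late-stage leukaemia arrays. In all, 13 tested names lacked a miRNA gene; the other 3 were miR-720, miR-5117-3p and miR-5117-5p.

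The arrays hold T-cell acute lymphoblastic leukaemia (T-ALL) and normal thymocytes of C57BL/6 mice. M295 is a cultured mouse T-ALL line of that strain, with 1 array. LS and ES are late-stage and early-stage primary T-ALL, sorted as CD4+CD8+ cells from the spleens of chimeric mice that had received bone marrow transformed with N1ICD, an active intracellular form of Notch1. DN are CD4-CD8- and DP are CD4+CD8+ thymocytes, both sorted from thymus. LS, ES, DN and DP have 3 arrays each, which the design text calls biological replicates, and the sources used here give no ages. Spleen was the source of the primary T-ALL cells and thymus that of the thymocytes; the effects of tissue and of disease cannot be told apart. The labels name no marker that would separate donor from host cells in the chimeras.

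A miRNA is cut from a hairpin precursor by Drosha and Dicer and is loaded into an Argonaute protein, where its seed pairs with target mRNAs. Short pieces of abundant RNAs can carry the same length and end up in small RNA libraries, and miRBase has withdrawn entries later recognised as such pieces. miR-712 is described in mouse as cut from an internal transcribed spacer, a stretch of the ribosomal RNA precursor that is removed as ribosomes are made, and miR-720 is known as a fragment of a transfer RNA. A hybridisation probe reads any RNA that carries its complement, so the signal of these names is that of the probe's target sequence, whatever molecule it sits in.

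The RefSeq miRNA table matched 0 of the 10 names, so no mature sequence of theirs is shown. The sequences below belong to RefSeq miRNAs whose signal followed miR-5105 and miR-5097 most closely over the 12 primary arrays. They are shown as a description, and what the probes of miR-5105 and miR-5097 bind was not tested. They are mature sequences, 5′ to 3′, with the seed (bases 2 to 8) in capitals. The first 3 are the nearest to miR-5105 and the last 2 are near miR-5097.
miR-2137, chrX:72992113-72992133 (+): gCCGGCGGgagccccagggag
miR-188-5p, chrX:7248031-7248051 (-): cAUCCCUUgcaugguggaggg
miR-3081-5p, chr16:44558092-44558114 (-): gACUGGAGcuuggagcggugagc
miR-3963, chr3:151023839-151023857 (-): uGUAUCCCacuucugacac
miR-3968, chr11:115447969-115447989 (-): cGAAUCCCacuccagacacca

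The coordinates are those of GRCm38.p6. No seed is shared among the 5. miR-2137 has a G and C content of 85.7%, against a median of 52.2% over the 1679 mature mouse sequences compared. miR-3963 and miR-3968 share the run AUCCCACU, which starts at base 4 of both. The run was found by comparing these 2 sequences after their signals were known, and of the 1679 sequences it is held, on the strand as written, by 2, or 0.119%, namely this pair. miR-3968 ends in CCA, as do 23 of the 1679 sequences (1.37%). CCA is also the end that mature transfer RNAs carry, and an origin of these names in transfer RNA was not tested.

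Signals are given on the log2 scale after each array was divided by its own 75th percentile, so a value is a level relative to that array and differs by probe. Levels of different names are therefore not compared. The 10 names were chosen by their entry in the gene table and with their measured fold changes in the comparisons of T-ALL with thymocytes and of LS with ES known, with no threshold on a value. In those comparisons the names that passed the limma threshold are counted as a description, not as evidence, and a p-value is printed for DN against DP alone. No spot was saturated on any array. ES 1 stood apart, with a negative-control standard deviation of 18.7 against at most 7.11 elsewhere, and 115 mouse names above background against 157 to 257 on the other arrays. ES 3 carried miR-223-3p, a myeloid miRNA, at 2.85, while the other 11 primary arrays lay at -4.89 or below. miR-223-5p, the other member of the myeloid list of 2, was above background on 0 of the 12 primary arrays. The blood cell miRNA miR-142-3p was above background on all 12 primary arrays. Of its list of 6 T lineage and blood cell miRNAs, miR-142-5p, miR-181a-5p, miR-17-5p and miR-92a-3p were too. The last, miR-150-5p, was above background on all 6 thymocyte arrays and on 4 of the 6 primary T-ALL arrays. miR-181a-5p, known for its high level in DP thymocytes, averaged -0.64 in LS, -1.32 in ES, -0.83 in DN and 1.88 in DP, so the T-ALL cells, although sorted as CD4+CD8+, did not carry it at the DP level.

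**Figure D1:**
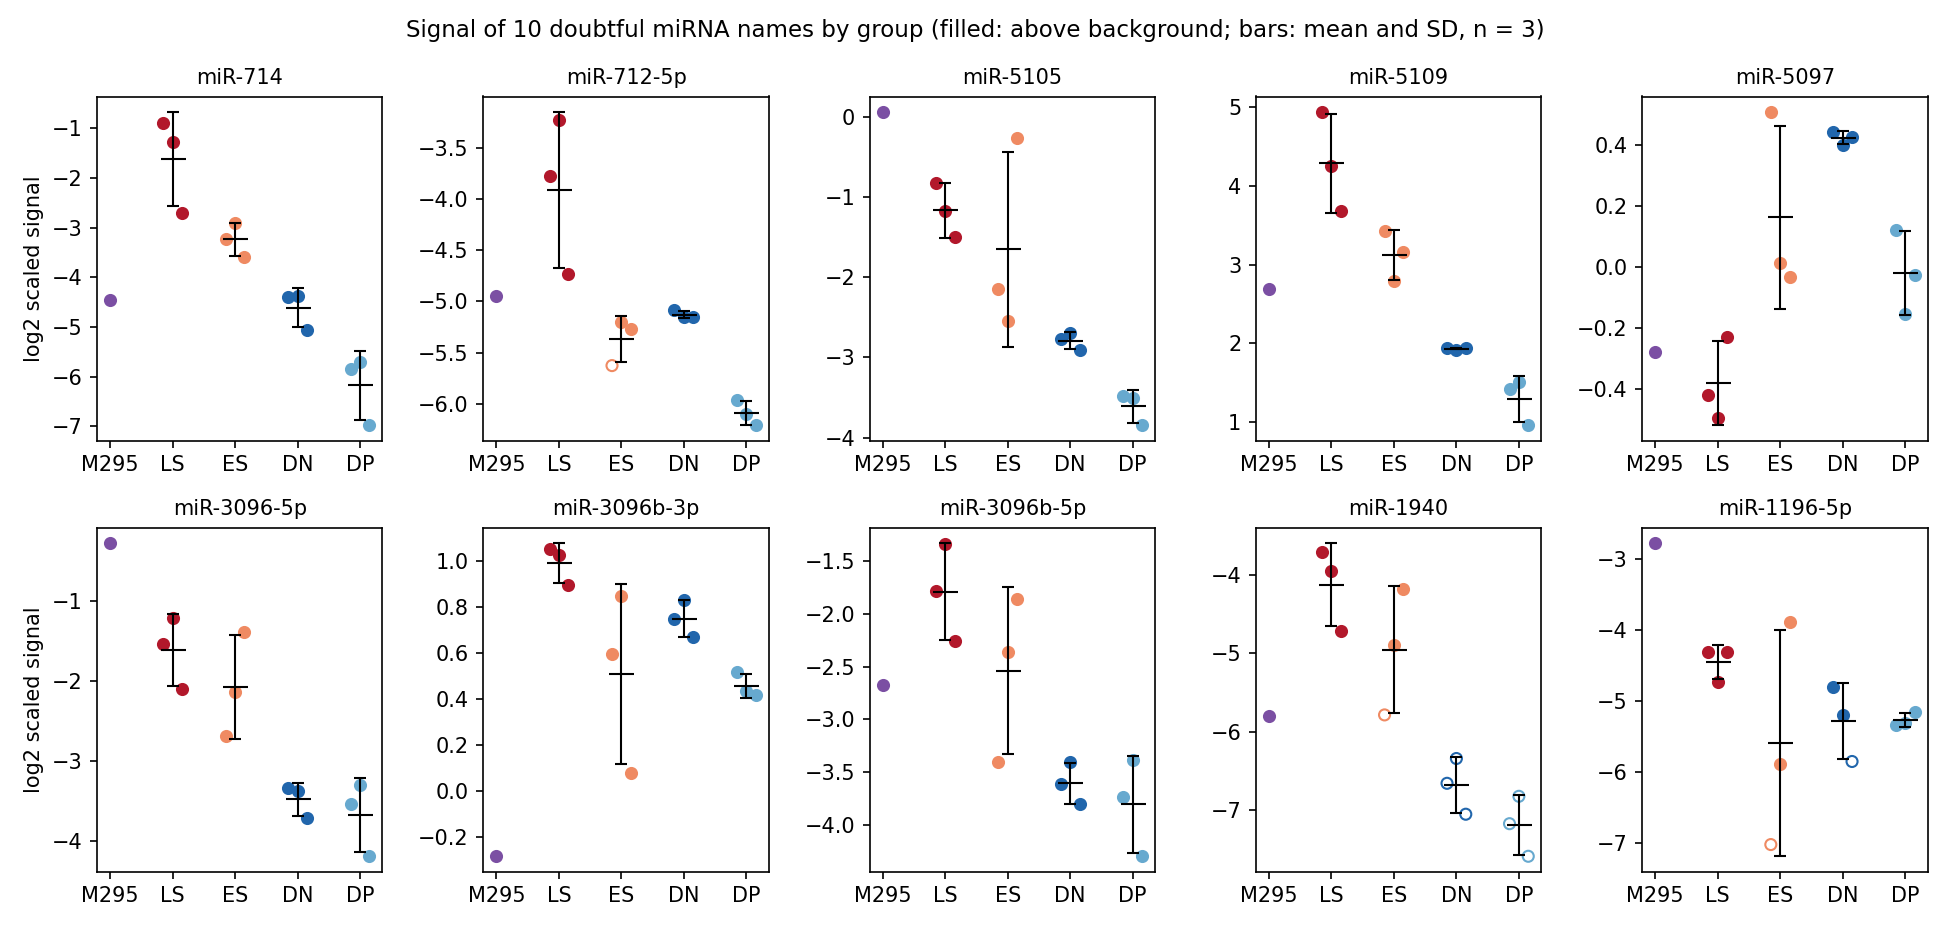
Signal of the 10 names on each array, on the log2 scale relative to the array's 75th percentile. Points are arrays (open where not well above background), bars are the mean and SD of 3 arrays, and M295 has 1 array; miR-714 and miR-5109 step down from LS to ES, DN and DP with no overlap between neighbouring groups, while miR-5097 is lowest in LS.

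In T-ALL most of these names were brighter than in thymocytes, with miR-714 and miR-5109 showing the widest gaps among names above background in both. Of the 10 names, 7 were called higher in T-ALL (limma, adjusted p under 0.05) and 0 lower, where 57.2% of the 229 tested names were called, 31.4% higher and 25.8% lower. In LS against DP, 8 were called higher and 0 lower (all tested names: 58.5% called, 32.3% higher and 26.2% lower). ES against DP gave 6 higher and 0 lower, and 46.3% of all tested names were called, 21% higher and 25.3% lower. The arrays of the groups did not overlap for 5 of the 10 names in T-ALL against thymocytes (19.7% of all tested names), 10 in LS against DP (78.2%) and 6 in ES against DP (58.1%). The median log2 fold change of the 10 was 1.63 in T-ALL against thymocytes, 2.11 in LS against DP and 1.43 in ES against DP. Over all 229 tested names the medians were -0.12, 0.19 and 0.074 in the same order. These 3 comparisons share arrays and were known when the names were picked, so nothing is read from the counts.

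**Figure D2:**
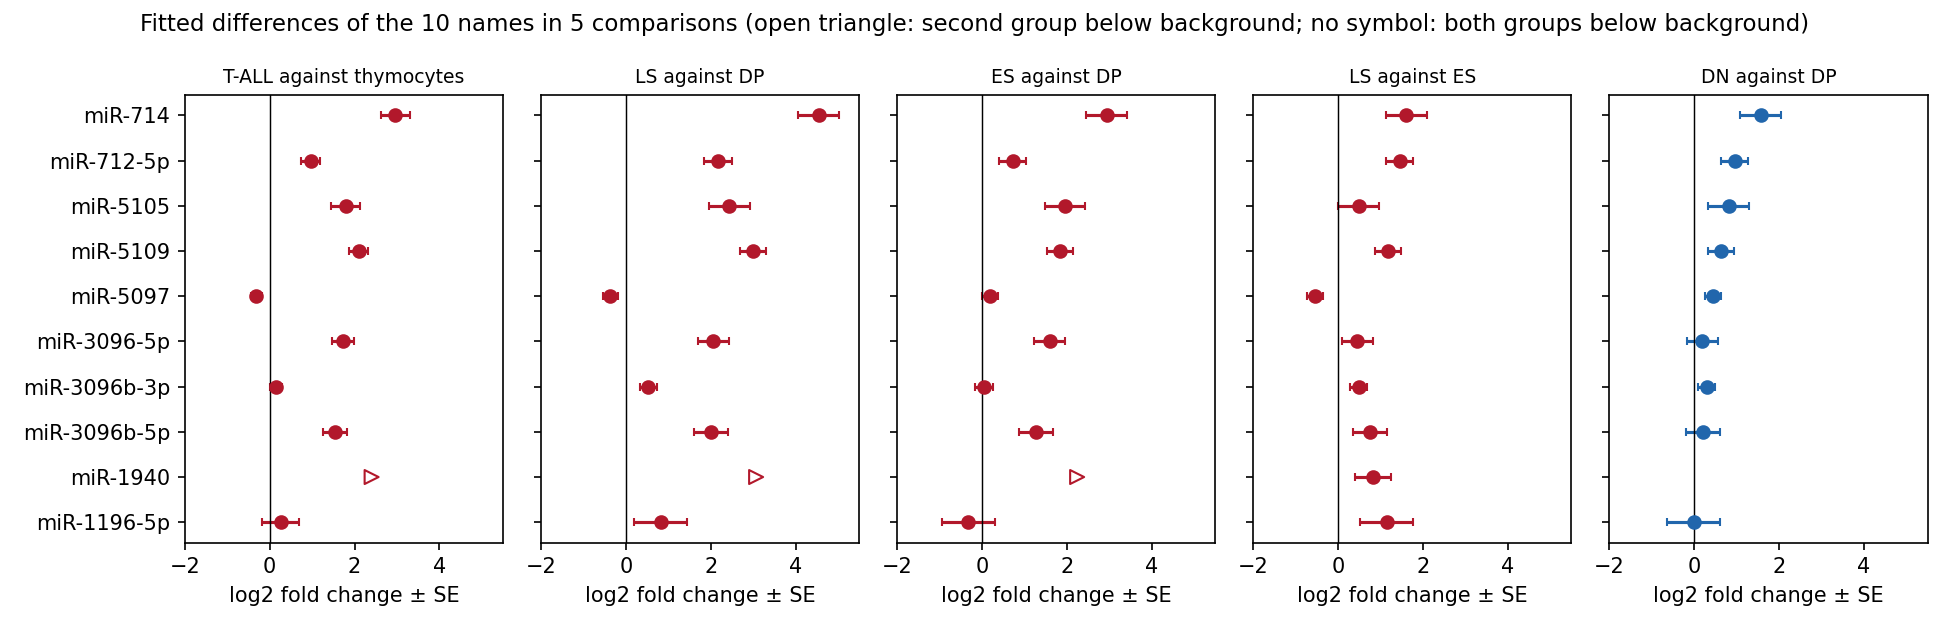
Fitted log2 fold changes of the 10 names in 5 comparisons, first-named group over second, with standard errors of the fit. Open triangles mark miR-1940 where the second group was below background on all its arrays, so that its level there is not measured, and it has no symbol in DN against DP; miR-714 lies farthest right in LS against DP, at 4.55.

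miR-714 had the widest range of the 10. It stood at -0.90, -1.27 and -2.70 in LS, at -3.23, -2.91 and -3.58 in ES, at -4.40, -4.37 and -5.06 in DN, and at -5.84, -5.71 and -6.98 in DP. The order was LS, ES, DN and DP, and no group overlapped its neighbour. LS exceeded DP by 4.55 ± 0.48 (SE) on the log2 scale, or 23.4-fold, and ES exceeded DP by 2.94 ± 0.48. With normexp background correction the difference of LS from DP was 2.74. LS 3 and DP 3 were each the lowest array of their group. M295 lay at -4.45, below the lowest primary T-ALL array by 0.87 and inside the DN range.

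miR-712-5p, the name described as coming from the ribosomal RNA precursor, kept a different order. It stood at -3.78, -3.23 and -4.74 in LS, at -5.63, -5.21 and -5.27 in ES, at -5.08, -5.15 and -5.15 in DN, and at -5.97, -6.10 and -6.20 in DP. ES lay below DN here, and ES 1 was not well above background. LS exceeded DP by 2.17 ± 0.32 (SE), or 4.50-fold, and ES exceeded DP by 0.72 ± 0.32, which was not called. M295 lay at -4.95, within the range of the 6 primary T-ALL arrays.

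Both names are read by 4 probes of 10 spots each, and the probes did not measure alike. For miR-714, 1 probe was at the floor of -7.59 on 10 of the 12 primary arrays and another on 5. For miR-712-5p the same held for 1 probe on 10 arrays and another on 7. The other 2 probes of each name were above the floor throughout: in LS against DP they differed by 4.54 and 4.37 for miR-714, and by 1.5 and 2.53 for miR-712-5p. The pair of probes thus gave close differences for miR-714 and unequal ones for miR-712-5p.

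**Figure D3:**
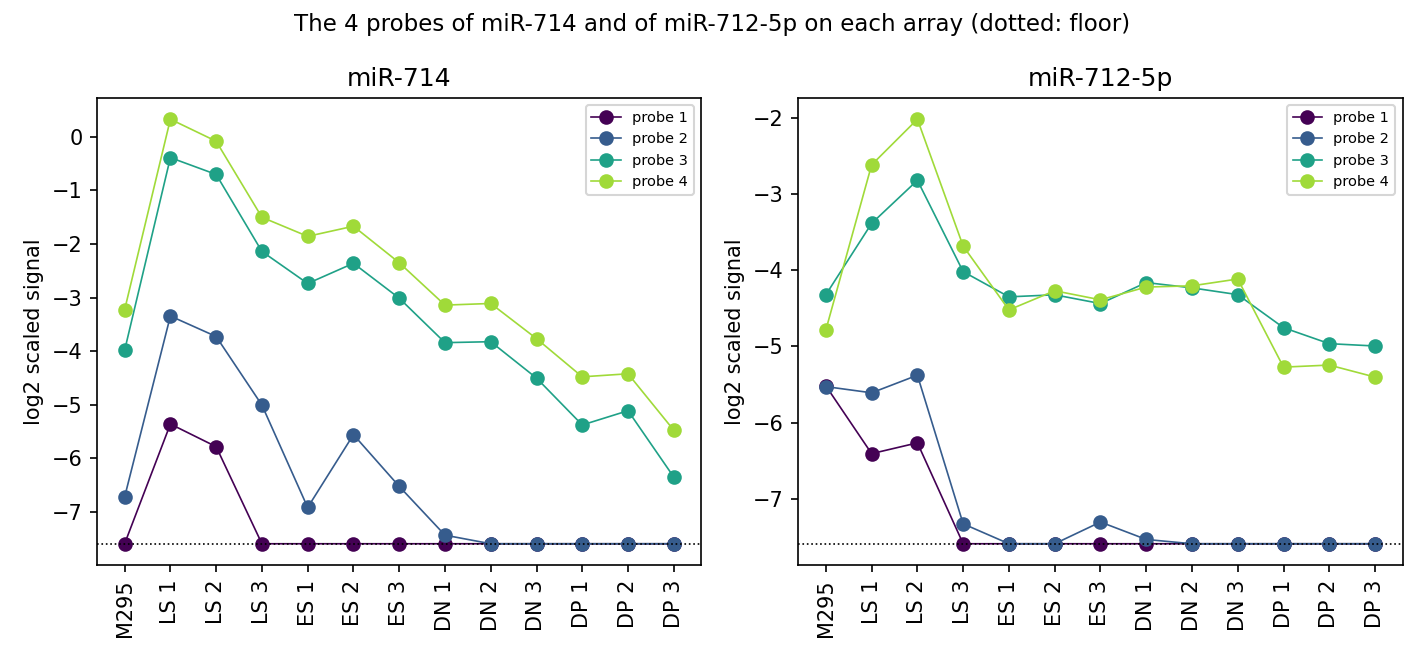
Signal of each of the 4 probes of miR-714 and miR-712-5p on the 13 arrays, log2 scale, with the floor of -7.59 as a dotted line. Probes 3 and 4 of both names follow the groups, while probes 1 and 2 lie on or near the floor on the DN and DP arrays.

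miR-5109 followed the order of miR-714. It stood at 4.94, 4.25 and 3.68 in LS, at 3.43, 2.79 and 3.15 in ES, at 1.94, 1.92 and 1.94 in DN, and at 1.41, 1.51 and 0.96 in DP. No group overlapped its neighbour, and the 3 DN arrays agreed to an SD of 0.011. LS exceeded DP by 3.00 ± 0.31 (SE), and ES exceeded DP by 1.83 ± 0.31, or 3.56-fold. M295 lay at 2.69, below the lowest primary T-ALL array by 0.10.

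miR-5105 overlapped between the stages of the leukaemia through 1 array, ES 3. It stood at -0.82, -1.17 and -1.51 in LS, at -2.15, -2.54 and -0.27 in ES, at -2.77, -2.70 and -2.91 in DN, and at -3.48, -3.51 and -3.84 in DP. ES 3 exceeded every LS array while ES 1 and ES 2 lay below all of them, and the 6 T-ALL arrays all lay above the 6 thymocyte arrays. ES exceeded DP by 1.96 ± 0.48 (SE) with all arrays and by 1.26 without ES 3, while LS exceeded DP by 2.44 ± 0.48. LS exceeded ES by 0.49 ± 0.48 with all arrays and by 1.18 without ES 3. M295 had the highest value of the 13 arrays, 0.057.

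The 2 names miR-3096-5p and miR-3096b-5p moved together in the primary cells. miR-3096-5p stood at -1.54, -1.21 and -2.10 in LS, at -2.69, -2.13 and -1.39 in ES, at -3.34, -3.38 and -3.71 in DN, and at -3.53, -3.29 and -4.19 in DP. miR-3096b-5p stood at -1.79, -1.34 and -2.26 in LS, at -3.40, -2.36 and -1.86 in ES, at -3.61, -3.41 and -3.80 in DN, and at -3.73, -3.39 and -4.30 in DP. In both names LS overlapped ES and DN overlapped DP. Over the 12 primary arrays their Pearson r was 0.98, and it was 0.96 over the deviations from the group means; the arrays share a scaling and the probes may share targets. M295 parted them: miR-3096-5p stood at -0.28, above the highest primary T-ALL array by 0.93, and miR-3096b-5p at -2.67, within the primary T-ALL range.

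LS exceeded DP by 2.06 ± 0.36 (SE), or 4.16-fold, for miR-3096-5p and by 2.01 ± 0.40, or 4.03-fold, for miR-3096b-5p. In ES against DP the differences were 1.60 ± 0.36 and 1.27 ± 0.40. The call of miR-3096b-5p in ES against DP ended when DP 1, DP 3, ES 2 or ES 3 was left out, with differences of 0.92 to 1.70 over all arrays left out in turn.

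miR-3096b-3p, named for the opposite arm of the same hairpin as miR-3096b-5p, did not share its pattern. It stood at 1.05, 1.03 and 0.89 in LS, at 0.60, 0.85 and 0.08 in ES, at 0.75, 0.83 and 0.67 in DN, and at 0.52, 0.43 and 0.42 in DP. LS lay above every other array by a narrow gap, and ES spanned the DN and DP ranges. Its r with miR-3096b-5p over the 12 primary arrays was 0.37. LS exceeded DP by 0.53 ± 0.20 (SE), or 1.45-fold, a call that ended in 9 of the 12 fits with 1 array left out, those without any one of the DN, DP or LS arrays. M295 had the lowest value of the 13 arrays, -0.28.

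**Figure D4:**
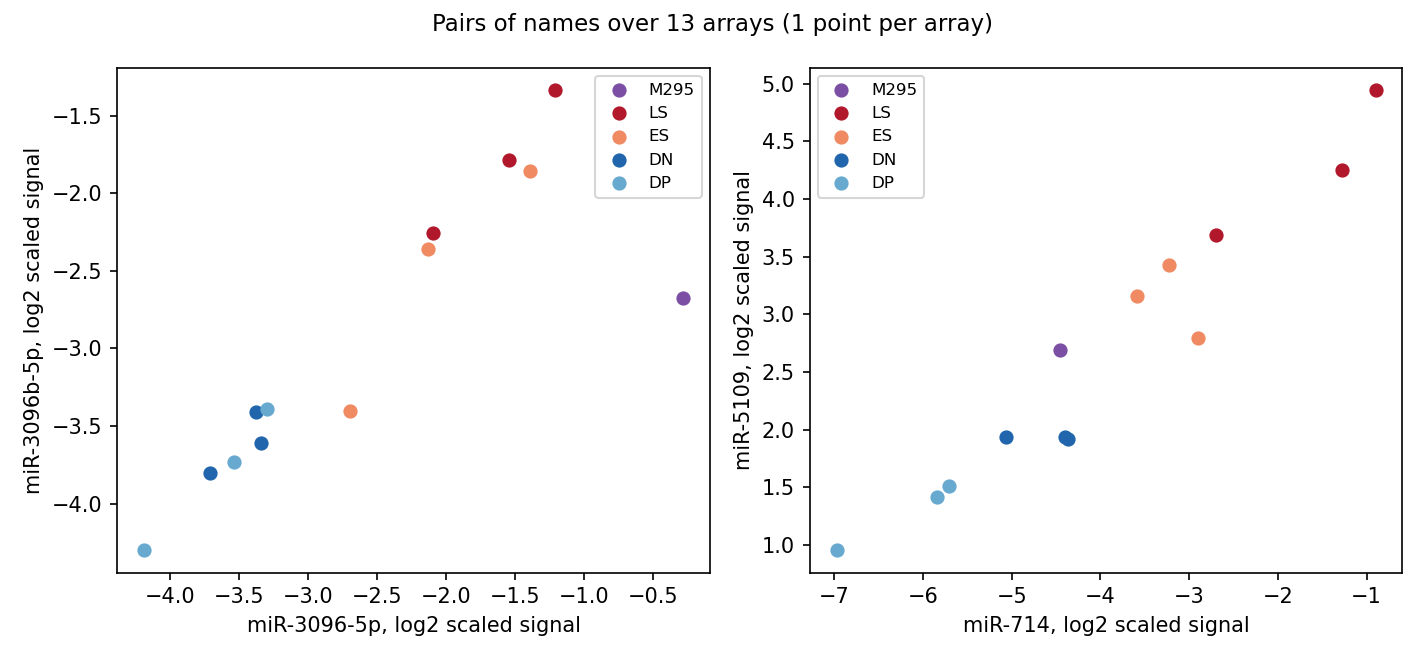
Signal of miR-3096b-5p against miR-3096-5p (left) and of miR-5109 against miR-714 (right), log2 scale, 1 point per array coloured by group. The 12 primary arrays follow a line in both panels, and M295 lies off it in the left panel, at -0.28 for miR-3096-5p and -2.67 for miR-3096b-5p.

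miR-1940 was above background in leukaemia arrays alone. It stood at -3.71, -3.95 and -4.72 in LS and at -5.79, -4.89 and -4.18 in ES, where ES 1 was not well above background. In DN it read -6.66, -6.34 and -7.06 and in DP -7.18, -6.83 and -7.59, not well above background on any of the 6 thymocyte arrays. On this scale, with both probes averaged, it was at least 8.40-fold higher in LS than in DP and at least 4.74-fold higher in ES than in DP, where ES 1, 1 of the 3 ES arrays, also counts at a value below background. A DP array counts here at its own value, or at its lowest above-background signal where that is higher. The own value was the higher one on each array, with DP 3 set to the floor of -7.59, so these folds equal the fitted ones. They do not hold under another background correction: with normexp the differences were 1.08 for LS against DP and 0.84 for ES against DP on the log2 scale. M295 was above background at -5.81. Over the 12 primary arrays miR-1940 had an r of 0.98 with miR-3096-5p and 0.97 with miR-3096b-5p, part of which rests on thymocyte values below background.

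miR-5097 ran against the other 9 names in LS. In ES and DN it lay above DP on average, by 0.18 and 0.44. It stood at -0.42, -0.49 and -0.23 in LS, at 0.51, 0.01 and -0.03 in ES, at 0.44, 0.40 and 0.43 in DN, and at 0.12, -0.15 and -0.03 in DP. LS lay below every other primary array, ES 1 was the highest of all, and ES overlapped both thymocyte groups. The difference of LS from DP was -0.36 ± 0.19 (SE) and that of T-ALL from thymocytes -0.31 ± 0.13, neither called. Its r with the other 9 names over the 12 arrays was negative throughout, from -0.27 with miR-3096b-3p to -0.70 with miR-3096b-5p. Its nearest tested names were miR-3963 (r 0.98), the transfer RNA fragment miR-720 (0.95) and miR-3968 (0.94), 2 of which hold the shared run shown above.

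miR-1196-5p gave no stable pattern. It stood at -4.30, -4.72 and -4.30 in LS, at -7.02, -5.88 and -3.88 in ES, at -4.79, -5.20 and -5.85 in DN, and at -5.33, -5.31 and -5.16 in DP, and ES 1 and DN 3 were not well above background. The 3 ES arrays spanned more than the rest together, and LS lay above all DP arrays. The difference of ES from DP was -0.33 ± 0.63 (SE); it was -1.18 without ES 3 and 0.39 at the other end of the range over arrays left out, and its sign turned when all mouse miRNAs set the scale or normexp correction was used. M295 stood at -2.78, above the highest primary T-ALL array by 1.10.

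The comparison of LS with ES asks whether the leukaemia differs between stages. One of the 10 names, miR-712-5p, was called higher and 0 lower, where 2.62% of the 229 tested names were called, 2.18% higher. The difference was 1.45 ± 0.32 (SE), with every LS array above every ES array, and 1.91 within slide 1 against 0.53 within slide 2. Of the 10 names, 5 differed in the same direction on both slides. miR-714 differed by 1.61 ± 0.48 and miR-5109 by 1.17 ± 0.31, without overlap and without a call. In this comparison 5 of the 10 names did not overlap, against 11.4% of all tested names. Single arrays moved these counts: 6 of the 10 names were called without ES 3, among them miR-5097 as lower, and 3 without LS 3. Of all 229 tested names, 55 were called without ES 3 and 8 without LS 3. The call of miR-712-5p ended without any one of the DN or DP arrays, ES 1, ES 2, LS 1 or LS 2. Scaling over all mouse miRNAs moved the median of all tested names in LS against ES by -0.66, and under it the differences of miR-3096-5p, miR-3096b-3p and miR-5105 turned to -0.28, -0.26 and -0.26, against 0.46, 0.48 and 0.49 as reported.

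Within the 2 slides, which hold 7 and 6 of the arrays, LS exceeded DP by 4.76 on slide 1 and 3.64 on slide 2 for miR-714, by 3.19 and 2.45 for miR-5109, and by 2.48 and 2.17 for miR-5105. ES exceeded DP by 2.78 and 2.76 for miR-714 and by 1.70 and 1.92 for miR-5109 on slides 1 and 2. For miR-5105 the same difference was 1.13 on slide 1 and 3.41 on slide 2, whose only ES array is ES 3. T-ALL against thymocytes ran the same way on both slides for 8 of the 10 names and opposite ways for miR-1196-5p (-0.42 and 1.29) and miR-3096b-3p (0.25 and -0.10).

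DN against DP sets an earlier stage of normal thymocyte development against a later one and compares no leukaemia arrays. Its arrays also enter the comparisons that were known when the names were picked, so its p-values are not free of that choice. All 6 arrays come from thymus. Of the 10 names, 2 rose in DN and 0 fell, where 29.3% of the tested names were called, 10.5% higher and 18.8% lower. The median log2 fold change of the 10 was 0.48, against 0.15 over all 229 tested names. The 10 include miR-1940, which was below background on all 6 arrays, and the median rests in part on its value. The groups did not overlap for 6 of the 10 names, against 76% of all tested names, so separated groups were common in this comparison.

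miR-714 rose in DN by 1.56 ± 0.48 (SE; 95% confidence interval 0.49 to 2.64), a 2.96-fold difference, with an adjusted p of 0.0338 in limma over the 229 tested names. Its 3 DN arrays all lay above its 3 DP arrays. The difference was 1.45 within slide 1 and 1.62 within slide 2, and the call ended without DN 1, DN 2, DP 1 or DP 3, with an adjusted p of up to 0.136 in limma. miR-712-5p rose by 0.96 ± 0.32 (SE; interval 0.25 to 1.67), a 1.94-fold difference, with an adjusted p of 0.0453 in limma and again with all 3 DN arrays above all 3 DP arrays. Its difference was 0.88 and 1.00 within slides 1 and 2, and its call ended without any one of the 6 thymocyte arrays, ES 2 or LS 1, with an adjusted p of up to 0.133. When the 4 probes were summarised by their median in place of their mean, the differences were 0.81 for miR-714 and 0.53 for miR-712-5p and neither was called. Both calls also ended with quantile normalization, in the authors' table, with all mouse miRNAs tested and with normexp correction, where the differences were 0.77 for miR-714 and 0.54 for miR-712-5p.

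The remaining names did not pass the test in DN against DP. miR-5105 differed by 0.82 ± 0.48 (SE; adjusted p = 0.249 in limma), miR-5109 by 0.64 ± 0.31 (adjusted p = 0.152) and miR-5097 by 0.44 ± 0.19 (adjusted p = 0.105), all 3 without overlap between the groups. miR-3096b-3p, also without overlap, differed by 0.29. miR-3096-5p and miR-3096b-5p differed by 0.20 each, with DN inside the DP range. miR-1196-5p differed by -0.014, and miR-1940 was below background in both groups and has no fold.

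The fit shares 1 spread over all groups, and the median SD of the tested names was 0.39 in LS and 0.65 in ES, against 0.11 in DN and 0.14 in DP. With DN and DP fitted alone, 164 of the 229 tested names were called against 67 in the fit of all groups, and 6 of the 10 names were called. Markers of other cell types were also higher in DN than in DP. The erythroid miR-451 averaged -0.26 in DN and -5.89 in DP. Summed over the list of 2 erythroid miRNAs, the level was -0.41 to 0.021 in DN and -5.91 to -5.19 in DP, with both miRNAs above background on every DN array and miR-144-3p on no DP array. The endothelial miR-126-3p was above background on the 3 DN arrays and no other primary array, 1 of a list of 4, and miR-126-5p, miR-143-3p and miR-145-5p were at the floor on all 12. The myeloid list of 2 had 1 member above background on each DN array and 0 on each DP array, with sums of -5.04 to -4.68 in DN and -6.44 to -6.14 in DP. Their part in the differences of miR-714 and miR-712-5p was not tested. In the T-ALL comparisons miR-451 averaged -1.58 in LS and -3.23 in ES, against -5.89 in DP, and its part was not tested either.

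For 7 of the 10 names, those above background on all 12 primary arrays, the 3 tested names with the most similar signal were looked up. miR-714 and miR-5109 were each other's nearest (r 0.97). After miR-714 and miR-5109 came miR-1940 (0.93) and miR-3098-5p (0.92) for the one, and miR-3472 (0.97) and miR-721 (0.97) for the other. miR-5105 followed miR-2137 (0.997), miR-188-5p (0.98) and miR-3081-5p (0.97). For miR-3096-5p and miR-3096b-5p the nearest were each other, miR-1940, and miR-3102-5p.2-5p (0.96 and 0.94). miR-3096b-3p followed miR-677-3p (0.94), miR-378-3p (0.92) and miR-378b (0.89). These are descriptions over 12 arrays that share their scaling and fall into 4 groups.

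Beside the 10, the 3 other tested names without a miRNA gene did not all move one way. miR-5117-5p was called higher in T-ALL, with a log2 fold change of 1.21 ± 0.22 (SE), miR-720 lower, with -0.44 ± 0.13, and miR-5117-3p was not called (0.059 ± 0.15). RefSeq lists Mir5117 as a synonym of Gas5, a non-coding RNA gene that hosts small nucleolar RNAs. In DN against DP none of the 3 was called or had an unadjusted p under 0.05, with differences of 0.24 for miR-5117-5p, 0.25 for miR-720 and 0.29 for miR-5117-3p (limma, adjusted p = 0.600, 0.361 and 0.340). Of the 216 tested names that have a miRNA gene, 64 were called higher in T-ALL and 58 lower, with a median of -0.14. In DN against DP 22 of the 216 rose and 43 fell, with a median of 0.10.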

How the data were processed

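MicroRNAs were measured in 13 mouse samples on 1-colour Agilent arrays (Cy3). Per the file headers, spots were read with Feature Extraction 10.7.3.1, and the deposited files give each spot's background-subtracted intensity, with no scaling across arrays. The authors also deposited a value table of log2 values, with a median of 3.29 in every column; its scaling step is not given in the sources used here, and it served as an alternative. RMA, affy, MAS5 and GCOS appear in the submitters' processing notes, with no role given.

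Control and outlier spots were removed (4.03 to 8.60% outliers per array). The remaining spots of a probe, and then the probes of a name, were averaged. Scaling divided each array by the 75th percentile of the 108 mouse miRNAs above background on all 12 primary arrays, floored at -7.59 and put on the log2 scale. A name was above background where at least 50% of the kept spots of 1 probe carried the software's mark. The 12 primary arrays were fitted together, 1 mean per group, in limma 3.58.1 under R 4.3.3 (data.table, version 1.17.8), and a name was called at a Benjamini-Hochberg adjusted p under 0.05 over the 229 tested. M295 was not fitted. The number of arrays limits the precision. The code was tested on simulated data. All 10 names are reported, and the neighbours named are the 3 tested names with the highest r. The names and lists were chosen with earlier results of these data known.

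Same-numbered DP and LS arrays deviated together (r 0.22, 0.18 and 0.50), so their numbers were taken as pairs, from the data and not the labels. The other group pairs did not meet that rule. The alternatives were the scaling, quantile normalization, the authors' table, the median of probes, the total signal, outlier spots kept, the floor, normexp background correction (on the median spot signal), the filter, slide, replicate number, groups alone and each array left out. Markers of 9 cell types or lineages were checked. The lists for liver, muscle, brain and epithelial cells are reported here alone: none of their markers was above background on a thymocyte array, and no liver or muscle marker on a T-ALL array. Of the 2 brain markers, miR-9-5p was above background on 3 of the 6 primary T-ALL arrays and miR-124-3p on 0. Of the 5 epithelial markers, miR-141-3p was above background on 4, miR-200c-3p on 3 and miR-200b-3p on 1, and miR-200a-3p and miR-205-5p on 0.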

Additional observations from a re-analysis of the deposited data

Results flagged for a closer look

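miR-712-5p differed between the stages of leukaemia by 1.45 ± 0.32 (SE, log2 scale, LS over ES, 3 arrays each), the only one of the 10 names past the threshold in that comparison. The comparison was among those known when the names were picked. Every LS array lay above every ES array, and ES 1, the array with the noisiest background, was not well above background for this name. The call ended in 10 of the 12 fits with 1 array left out, so it is given as a value and not as evidence of a difference between the stages.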

How the results depend on the processing

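Counts of the 10 names called moved as follows. Within-slide counts are left out in all comparisons, because the fits within slide 1 and within slide 2 each leave some groups with 1 array. The direction was the same on both slides for 8 of the 10 names in T-ALL against thymocytes and 8 in ES against DP. It was the same for 10 in LS against DP, 5 in LS against ES and 9 in DN against DP. In ES against DP the count was 4 with all mouse miRNAs tested (all names: 81 of 1122) and 4 with the groups alone (62 of 229). It was 3 with the groups alone and the replicate block (40 of 229). In LS against ES the count was 0 when scaled over all mouse miRNAs, with quantile normalization, the authors' table and normexp correction. It was also 0 with all mouse miRNAs tested, only names above background on all arrays and slide as a block. The groups alone, with or without the replicate block, gave 0 too. In these settings 0 to 9 of all tested names were called. In DN against DP the count was 0 with quantile normalization (all tested names: 53 of 229), the authors' table (58), the median of probes (67) and normexp correction (42). It was also 0 with all mouse miRNAs tested (60 of 1122). It was 1 with only names above background on all arrays and 1 with the replicate block. The groups alone gave 6. The groups alone with the replicate block, a setting chosen after seeing the data, gave 7. In LS against DP, where the numbers pair, the replicate block gave 8 called, as without it. Of all 229 tested names, 135 were called with the block and 134 without.

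With each array left out in turn the counts were 7 to 8 in T-ALL against thymocytes, 7 to 9 in LS against DP and 5 to 7 in ES against DP. They were 0 to 6 in LS against ES and 0 to 4 in DN against DP. Over all 229 tested names the counts were 110 to 154, 99 to 164 and 69 to 120 in the first 3 comparisons. In LS against ES they were 1 to 55, and in DN against DP 44 to 101. The DN against DP difference of miR-1196-5p turned positive when scaled over all mouse miRNAs (0.28), with quantile normalization (0.0198), the authors' table (0.038), normexp correction (0.25) and within slide 1 (0.54), and ran from -0.26 to 0.27 over arrays left out. Those of miR-3096-5p (-0.061 to 0.39) and miR-3096b-5p (-0.045 to 0.41) turned negative without DP 3. Scaling over all mouse miRNAs moved the median of all tested names by 0.30 in DN against DP, 0.51 in ES against DP and -0.15 in LS against DP. Under normexp correction, LS exceeded DP by 2.74 for miR-714 and by 1.01 for miR-712-5p. The causes of these moves were not tested. Arrays below background limit miR-1940, miR-712-5p and miR-1196-5p, and probes at the floor limit miR-714 and miR-712-5p.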
